A study of Mus musculus with 2 samples.

Results

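A set of 34 genes of brain blood vessels was followed in a mouse fed cuprizone and a control mouse: 24 genes of the endothelial barrier and 10 genes of the mural cells that wrap it. The members were named by symbol for their roles in vessels, with earlier results of these data known, out of 30920 genes on the array. All 34 were found, each with 1 probe set that the array annotation codes as unique in the genome. RNA came from tissue labelled cerebellum of male C57BL/6 mice, 1 labelled Cuprizone and 1 labelled Control, and was read on a whole-transcript mouse gene array. A diet with 0.2% cuprizone for 6 weeks is described on both samples, so the treatment label alone assigns the groups; the labels used here state no age and no genetic change. Cuprizone is a copper chelator whose feeding kills oligodendrocytes and is used as a model of demyelination. With 1 array per group, values carry no replicate error and no test, and they speak of this pair of mice only.

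Brain capillaries are lined by endothelial cells that tight and adherens junctions join into a continuous sheet, the cellular basis of the blood-brain barrier. Carriers in this sheet bring nutrients in and pumps send drugs and waste back to the blood. Signals through receptors for vascular endothelial growth factor and angiopoietins keep the vessels alive and sealed, and pericytes and smooth muscle cells outside the endothelium hold its barrier state and set vessel calibre.

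The promoters of 5 members are shown because they belong to the junction gene with the largest difference, to 3 angiogenic receptors that were lower with it, and to a transporter whose levels were nearly equal. Sequences are from RefSeq on GRCm38.p6, run 5′ to 3′ on the gene's strand, and cover 250 bases before and 50 bases after the start of the gene. Capitals mark AGGAAG and GGAAGT, short forms of sites for ETS factors, and GATAAG, a site for GATA factors; both families take part in endothelial transcription. Both strands were searched, so a match on the other strand appears as its reverse complement, and AGGAAG and GGAAGT overlap in Flt1 and in Slco1c1. The windows are chr16:18776597-18776896 on the plus strand for Cldn5, chr5:147725962-147726261 on the minus strand for Flt1, chr5:75978406-75978705 on the minus strand for Kdr, chr4:94739039-94739338 on the plus strand for Tek and chr6:141524104-141524403 on the plus strand for Slco1c1.
Cldn5: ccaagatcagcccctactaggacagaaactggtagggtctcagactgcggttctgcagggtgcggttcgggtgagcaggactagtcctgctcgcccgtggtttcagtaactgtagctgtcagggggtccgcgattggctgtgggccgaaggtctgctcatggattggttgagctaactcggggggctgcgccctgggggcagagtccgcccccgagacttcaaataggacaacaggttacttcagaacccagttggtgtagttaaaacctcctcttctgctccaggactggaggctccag
Flt1: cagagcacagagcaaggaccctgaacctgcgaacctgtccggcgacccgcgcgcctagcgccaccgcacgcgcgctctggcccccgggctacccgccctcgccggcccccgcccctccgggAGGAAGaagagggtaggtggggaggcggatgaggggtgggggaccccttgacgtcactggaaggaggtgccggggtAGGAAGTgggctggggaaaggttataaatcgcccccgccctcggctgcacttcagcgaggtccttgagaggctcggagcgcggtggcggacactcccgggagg
Kdr: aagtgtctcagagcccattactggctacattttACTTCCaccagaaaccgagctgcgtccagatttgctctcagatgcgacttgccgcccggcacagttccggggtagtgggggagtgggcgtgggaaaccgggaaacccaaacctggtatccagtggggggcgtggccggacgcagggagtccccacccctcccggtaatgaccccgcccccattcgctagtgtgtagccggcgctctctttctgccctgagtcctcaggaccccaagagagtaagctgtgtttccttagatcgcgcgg
Tek: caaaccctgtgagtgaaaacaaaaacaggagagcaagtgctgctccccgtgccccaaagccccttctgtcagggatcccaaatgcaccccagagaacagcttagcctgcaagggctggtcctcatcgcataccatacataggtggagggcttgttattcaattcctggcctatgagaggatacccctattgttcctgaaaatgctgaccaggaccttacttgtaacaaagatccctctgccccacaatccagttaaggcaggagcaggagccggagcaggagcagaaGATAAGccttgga
Slco1c1: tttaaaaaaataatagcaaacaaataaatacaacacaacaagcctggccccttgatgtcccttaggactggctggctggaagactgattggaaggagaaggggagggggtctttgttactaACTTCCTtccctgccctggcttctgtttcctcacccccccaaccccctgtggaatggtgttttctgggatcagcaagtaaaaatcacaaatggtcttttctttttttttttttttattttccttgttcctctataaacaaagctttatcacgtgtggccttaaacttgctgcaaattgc

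Of the members, 26 had a promoter in the RefSeq table. AGGAAG was in 13 of these, against 38.4% of 27025 genes with a window, and all 13 were among the 20 endothelial members with one. Among the 13 was Abcb1a, whose RefSeq start lies 92986 bases from the start in the array annotation. GGAAGT was in 9 of the 26, against 26.5% of all: 8 endothelial members and the pericyte gene Anpep. GATAAG was in 5, against 8.58% of all: 4 endothelial members and the pericyte gene Rgs5. The CArG box, the site of serum response factor known from smooth muscle genes, was in 0 of the 26, against 1.81% of all; only 2 of the 26 windows, those of Acta2 and Lmod1, belong to smooth muscle members. Cldn5 held none of the 3 marked motifs in its window, whereas Slco1c1 held both ETS forms. A match here is a run of letters and not a shown binding site.

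Values are log2 expression levels, and a difference is the cuprizone level minus the control level. A gene counted as measured when its higher value reached 4.34, the median of all values, which kept 16559 genes and 33 members; Ly6c1 did not pass. Background was taken from 1420 genes for olfactory and vomeronasal receptors, families that are nearly silent in brain: the central 95% of their levels ended at 4.71 on the cuprizone array and 4.68 on the control array. Of the members, 28 lay above this bound on both arrays, 3 only on the control array and 3 on neither. Median levels over all probe sets were 4.36 on the cuprizone array and 4.33 on the control array. Among lists used to check the labels, all 10 myelin genes were at least 1.5-fold lower, with a summed log2 level of 63.5 on the cuprizone array and 74.5 on the control array, and 11 of 12 genes of reactive glia were at least 1.5-fold higher, with 82.6 on the cuprizone array and 68.4 on the control array. Cerebellar neuron genes lay above background on both arrays for 6 of 14, with Gabra6 and Pcp2 within it, and forebrain neuron genes for 12 of 14, so the tissue is called here only what its label says.

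**Figure D1:**
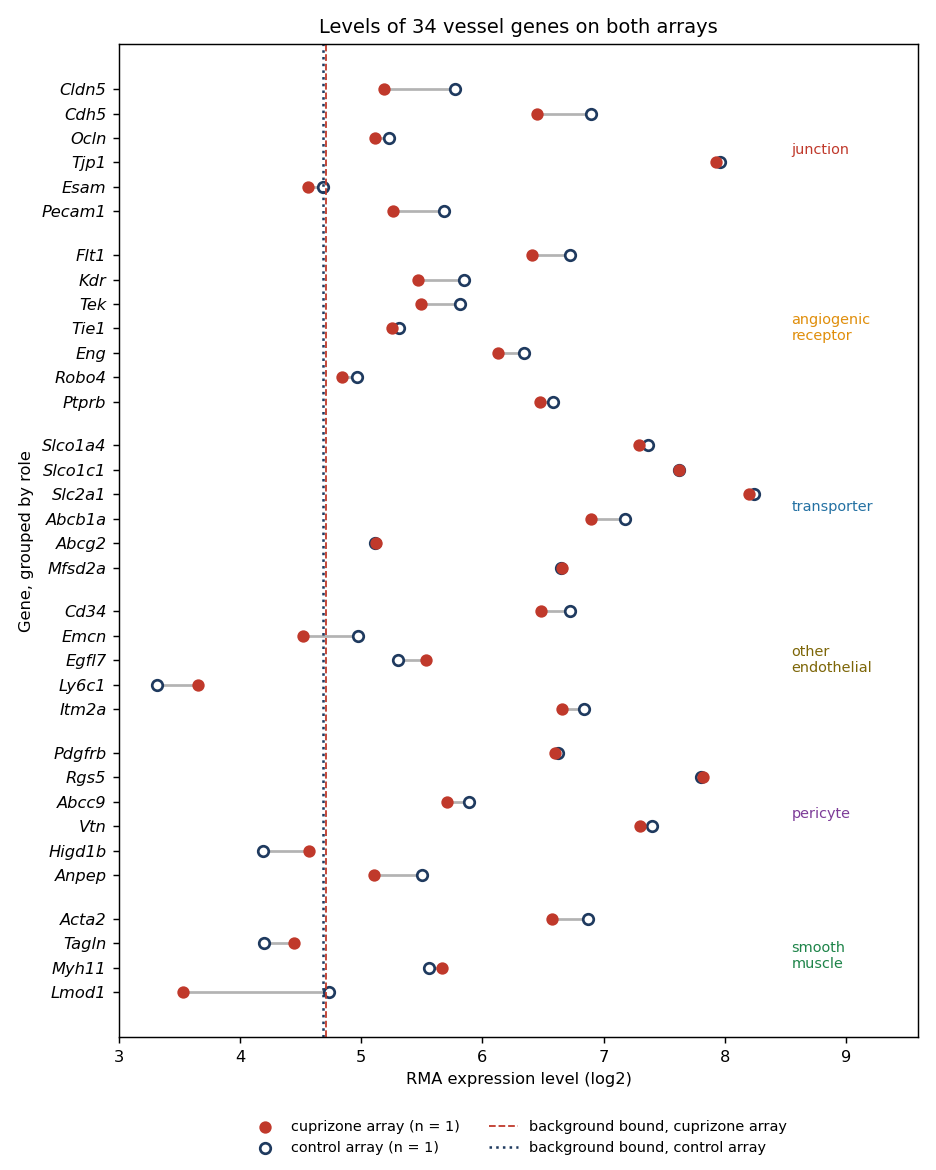
RMA expression level on the log2 scale (x axis) of the 34 vessel genes (rows, grouped by role), with a filled point for the cuprizone array, an open point for the control array and the upper bound of background on each array as vertical lines. The filled point lies left of the open one in all 6 junction genes, Esam among them at the background lines, and in all 7 angiogenic receptors, and the points nearly coincide in most transporters.

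Junction and angiogenic receptor genes were lower on the cuprizone array, while most transporter genes had nearly the same level on both arrays. Of the 33 measured members, 26 were lower on the cuprizone array and 7 higher; over all measured genes 51.6% were lower and 45.3% higher. Sizes were small: their median difference was -0.12, beside -0.01 for all measured genes, whose central 95% ran from -0.49 to 0.50. A difference of at least 1.5-fold lower was seen in 2 members, Cldn5 and Lmod1, where 1.35% of measured genes were so, and at least 1.5-fold higher in 0 members, where 1.6% of measured genes were so. Lmod1 was measured only through its control value and lay within background on the cuprizone array. With background values raised to the bound, 1 member was at least 1.5-fold lower, where 0.604% of measured genes were so. Among the 28 members above background on both arrays, 23 were lower, where 53.6% of such genes were. Endothelial members had a median of -0.13 over 23 measured genes, 20 of them lower, and mural members a median of -0.06 over 10, 6 of them lower, or -0.09 over the 7 above background on both arrays. In whole tissue, fewer endothelial cells and less of a transcript per cell cannot be told apart. The part that the lower myelin and higher glial transcripts have in these differences was not tested.

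These directions hold for the scale of the deposited values. Spike-in controls, RNAs added in fixed amounts, read higher on the cuprizone array, by a median of 0.26 for the hybridization controls and 0.42 for the poly-A controls. Scaling on them moves every gene down by that amount, so the median of all measured genes becomes -0.27 and -0.43, and 32 and 33 of the 33 measured members are lower. Positive differences smaller than these amounts turn. Of all genes past 1.5-fold, 94.3% and 99.1% were then lower, against 45.7% as deposited. Because every gene moves by the same amount, the place of a role relative to the median of all genes cannot change under either scaling. These places were -0.26 for junction genes, -0.20 for angiogenic receptors and -0.01 for transporters. Likewise, though 32 and 33 members were lower after scaling, 25 of the 33 lay under the median of all measured genes as deposited and under both scalings.

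To set each difference against the scatter of the array, it was placed beside the central 95% of the 500 measured genes nearest in mean level. Below this range lay 3 members, Cldn5, Cdh5 and Lmod1, where 2.67% of measured genes did, and 0 members lay above it, where 2.63% of measured genes did. Lmod1 lay there, at -1.20 where genes of like level ran from -0.94 to 0.95, through a cuprizone value within background. Raised to the bound, its difference was -0.02, which had to be near 0 since its control value lay just above the bound. The place of Lmod1 is thus not settled, which leaves Cldn5 and Cdh5. The measured ones among the 31 members within their ranges differed by no more than genes of like level commonly did on this pair of arrays. Ly6c1, which was not measured, was set beside the 500 measured genes of lowest mean level, so its range is not one of like level.

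**Figure D2:**
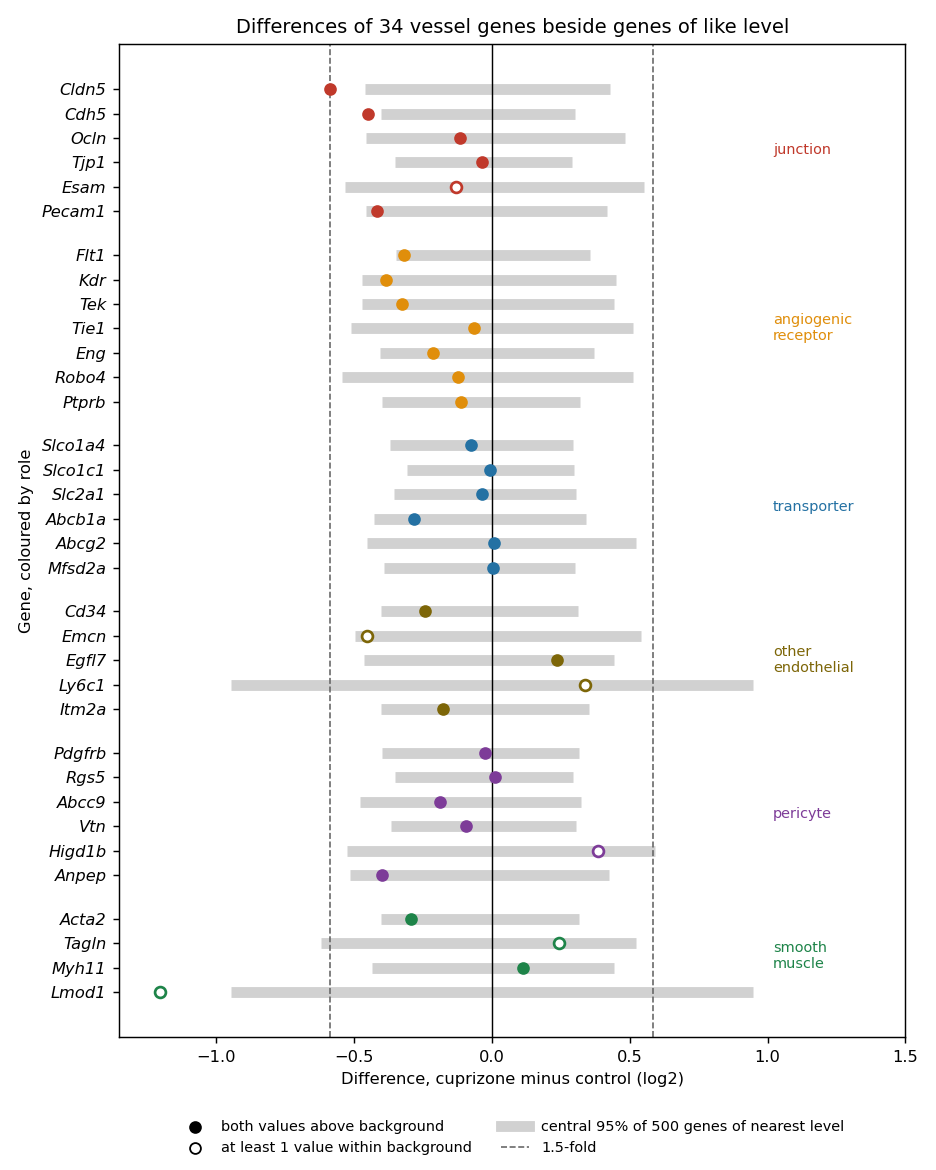
Difference between the cuprizone and control arrays on the log2 scale (x axis) for the 34 vessel genes (rows), filled where both values lay above background and open where at least 1 did not; grey bars give the central 95% of the 500 genes nearest in level and dashed lines mark 1.5-fold. Cldn5, Cdh5 and Lmod1 (open, with its cuprizone value within background) lie left of their bars, and no gene lies right of its bar.

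All 6 junction genes read lower on the cuprizone array, with a median difference of -0.27. Esam lay at the edge of background and turned to 0.02 with background values raised; the other 5 had a median of -0.42. Cldn5, the claudin that seals tight junctions of brain endothelium, had a level of 5.19 on the cuprizone array and 5.78 on the control array. Its difference of -0.59 was just past the 1.5-fold threshold, and genes of like level ran from -0.46 to 0.43. It fell short of the threshold with the lowess trend removed (-0.56) and with quantile normalization (-0.58). The array annotation places it on chromosome 16 from 18776847 to 18778262 on the plus strand. Cdh5, the vascular cadherin of adherens junctions, was at 6.45 on the cuprizone array and 6.90 on the control array, a difference of -0.45 where genes of like level ran from -0.40 to 0.30. It lies on chromosome 8 from 104101625 to 104144504. Pecam1, an adhesion molecule of endothelial borders that platelets and leukocytes also carry, was at 5.27 with cuprizone and 5.68 in the control, a difference of -0.42 that stayed within its range of -0.45 to 0.42.

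The other junction genes differed less. Ocln, the tight junction protein occludin, was at 5.11 on the cuprizone array and 5.23 on the control array (-0.11). Tjp1, the scaffold that ties tight junctions to actin and that many cell types make, was at 7.93 with cuprizone and 7.96 in the control (-0.04). Esam, an adhesion molecule of endothelial contacts, was at 4.56 with cuprizone, within background, and at 4.69 in the control, at the edge of it, so no fold is given. The larger differences were thus those of Cldn5, Cdh5 and Pecam1, and the smallest was that of the widely made scaffold. Among genes that the deposited annotation places in the bicellular tight junction, the 5 measured members had a median difference of -0.13. The 82 measured ones outside the set had a median of 0.01, with 38 lower and 43 higher. For the term angiogenesis, the 5 measured members had a median of -0.12. The 61 measured genes outside the set had -0.06, with 37 lower and 21 higher. For vasculogenesis, the 17 measured genes outside the set had a median of 0.07, with 6 lower and 11 higher.

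The 7 angiogenic receptor genes, too, all read lower on the cuprizone array, with a median of -0.21 and a range from -0.38 to -0.07. Kdr, the main signalling receptor for vascular endothelial growth factor, was at 5.46 on the cuprizone array and 5.85 on the control array (-0.38). Flt1, the related receptor that binds the factor tightly and signals weakly, was at 6.41 with cuprizone and 6.73 in the control (-0.32). Tek, the angiopoietin receptor, was at 5.49 with cuprizone and 5.81 in the control (-0.32). These 3 receptors differed by 1.31-fold, 1.25-fold and 1.25-fold, each within the range of genes of like level, which for Flt1 began at -0.35.

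The other 4 receptor genes also read lower. Eng, a coreceptor for ligands of the transforming growth factor family, was at 6.13 on the cuprizone array and 6.34 on the control array (-0.21). Robo4, the endothelial roundabout receptor, was at 4.84 with cuprizone and 4.96 in the control (-0.12). Ptprb, the endothelial phosphatase that restrains Tek, was at 6.47 with cuprizone and 6.58 in the control (-0.11). Tie1, which pairs with Tek, was at 5.25 with cuprizone and 5.31 in the control (-0.07). All 4 lay within the ranges of genes of like level.

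Transporters were the endothelial role with the smallest differences, with a median of -0.02 over 6 genes, 4 lower and 2 higher. Slc2a1, the glucose carrier GLUT1 that astrocytes also make, was at 8.20 on the cuprizone array and 8.24 on the control array (-0.04). Slco1c1, a thyroid hormone carrier, was at 7.62 with cuprizone and 7.63 in the control (-0.01). Mfsd2a, a lipid carrier that also restrains transport by vesicles, was at 6.65 on both (0.01). These 3 carriers stood level on the arrays as deposited. Among junction genes, Cldn5 and Cdh5 were lower, while Tjp1 (-0.04) stood nearly level as well and Ocln was at -0.11.

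Slco1a4, an organic anion carrier, was at 7.29 on the cuprizone array and 7.37 on the control array (-0.07). The efflux pump Abcg2 was at 5.12 with cuprizone and 5.11 in the control (0.01). Abcb1a, the P-glycoprotein pump of the mouse barrier, had the largest difference among transporters, at 6.90 with cuprizone and 7.18 in the control (-0.28, 1.21-fold), within its range of -0.43 to 0.34. The junction median minus the transporter median was -0.25, and the angiogenic receptor median minus the transporter median was -0.19; with 1 array per group neither gap could be tested.

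**Figure D3:**
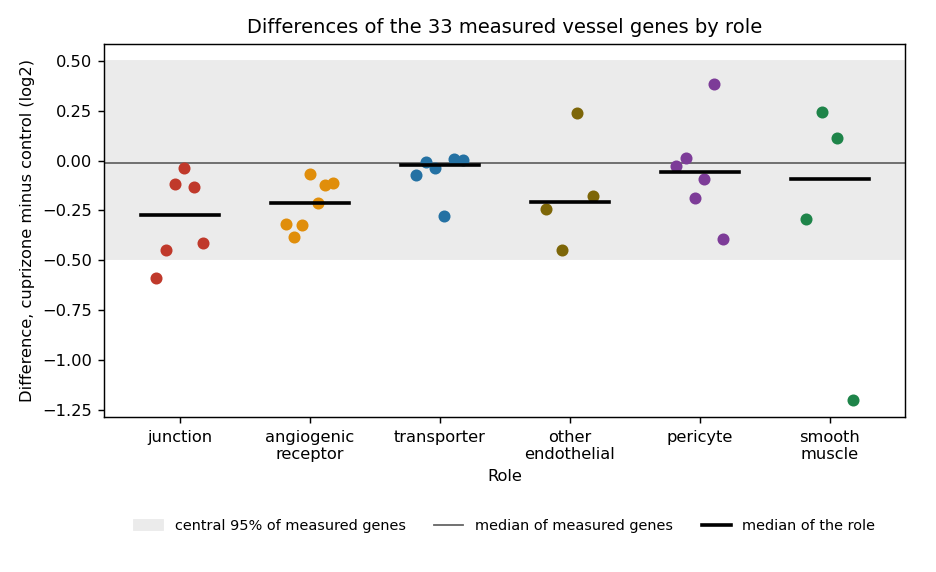
Difference between the cuprizone and control arrays on the log2 scale (y axis) of the 33 measured vessel genes by role (x axis), with a bar at the median of each role, a line at the median of all measured genes and a grey band for their central 95%. As deposited, all junction genes (Esam with its cuprizone value within background) and angiogenic receptors lie below 0, transporters other than Abcb1a lie close to 0, and mural genes lie on both sides.

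The remaining endothelial genes were mixed. Cd34, a sialomucin of the vessel surface, was at 6.48 on the cuprizone array and 6.72 on the control array (-0.24). Itm2a, a membrane protein enriched in brain endothelium, was at 6.66 with cuprizone and 6.84 in the control (-0.18). Emcn, a sialomucin of capillaries and veins, was at 4.52 with cuprizone, within background, and 4.97 in the control, a difference of -0.26 with the cuprizone value raised to the background bound. Egfl7, a secreted endothelial protein, ran the other way, at 5.54 with cuprizone and 5.30 in the control (0.24), though with hybridization and poly-A scaling it turned to -0.02 and -0.18. As deposited it was the only endothelial member above background on both arrays that was over 0.1 higher on the cuprizone array. Ly6c1, a surface protein of mouse brain endothelium with close relatives in the same family, was at 3.65 with cuprizone and 3.32 in the control, within background on both arrays, read by 8 probes where the other members had up to 33.

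Pericyte genes had a median difference of -0.06 over 6 genes, 4 lower and 2 higher, or -0.09 over the 5 above background on both arrays. Pdgfrb, the growth factor receptor that keeps pericytes at the vessel, was at 6.60 on the cuprizone array and 6.63 on the control array (-0.02). Rgs5, a regulator of G protein signals, was at 7.82 with cuprizone and 7.81 in the control (0.01). Vtn, the matrix protein vitronectin, was at 7.30 with cuprizone and 7.40 in the control (-0.09). Pdgfrb, Rgs5 and Vtn thus had close to equal levels on both arrays.

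Abcc9, a subunit of the potassium channel of mural cells, was at 5.71 on the cuprizone array and 5.89 on the control array (-0.19). Anpep, an aminopeptidase of the pericyte surface, had the largest pericyte difference, at 5.10 with cuprizone and 5.50 in the control (-0.40, 1.32-fold), within its range of -0.51 to 0.42. Higd1b, a mitochondrial protein used as a pericyte marker, was at 4.57 with cuprizone and 4.19 in the control, within background on both arrays, so its higher reading on the cuprizone array gives no fold.

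The smooth muscle genes disagreed in direction. Acta2, the smooth muscle actin, was at 6.58 on the cuprizone array and 6.87 on the control array (-0.29). Myh11, the smooth muscle myosin, was at 5.67 with cuprizone and 5.56 in the control (0.11). Tagln, an actin-binding protein of the same filaments, was within background at 4.44 with cuprizone and 4.20 in the control. Lmod1, which starts actin filaments in smooth muscle, was at 3.53 with cuprizone and 4.73 in the control. Its difference of -1.20 made it the 1 member at least 2-fold lower, where 0.127% of measured genes were. Its cuprizone value was within background and its control value just above it. Raised to the bound, its difference was 1.01-fold, so neither the size nor the direction of its change is settled. Of the 4 genes, Acta2 and Myh11 were measured above background on both arrays, and these differed in opposite directions within the ranges of their levels.

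Genes that act with the members were taken from further lists. Other genes of endothelial identity were mostly lower, as the members were: 14 of 17 measured genes were lower and 2 higher, with a median of -0.12. Cd93, a surface receptor of endothelium, was at 5.01 on the cuprizone array and 5.62 on the control array (-0.61), past 1.5-fold and below the range of genes of like level, and it was the 1 gene of the list past 1.5-fold. Cyyr1 was at 5.55 with cuprizone and 6.07 in the control (-0.52), also below its range. Mmrn2, a matrix protein of vessels that binds Cd93, was at 4.79 with cuprizone and 5.26 in the control (-0.47), just within it.

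**Figure D4:**
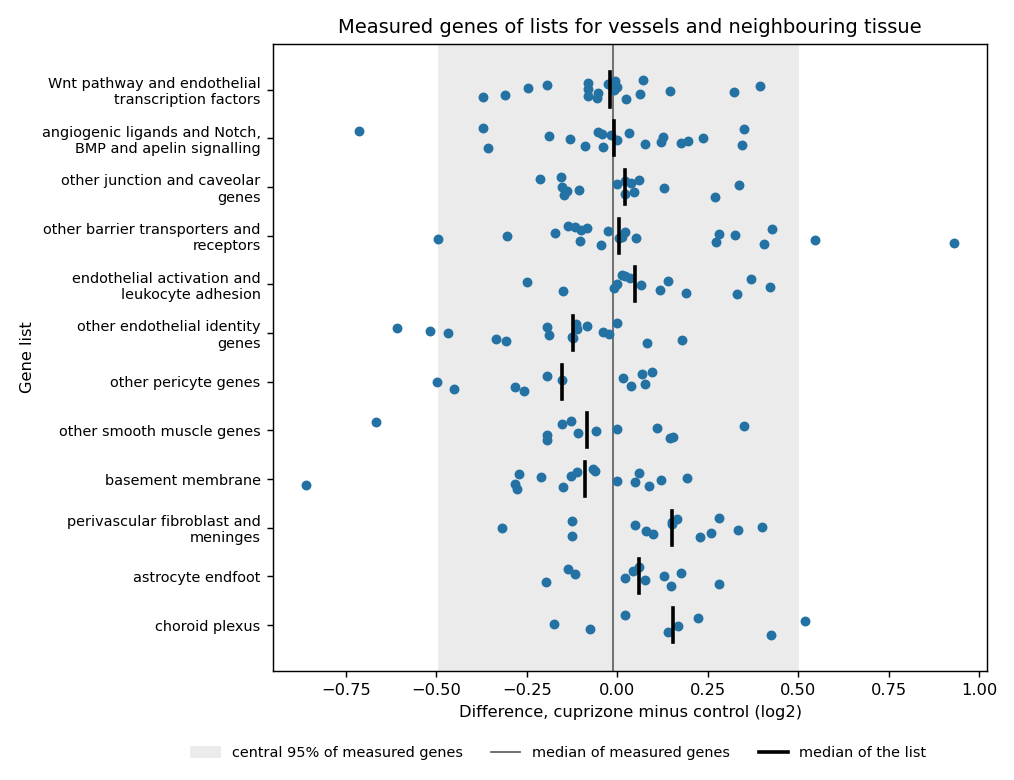
Difference between the cuprizone and control arrays on the log2 scale (x axis) of the measured genes of 12 lists for vessels and their surroundings (rows), with a bar at the median of each list, a line at the median of all measured genes and a grey band for their central 95%. Medians lie furthest left of the line for the pericyte, endothelial identity, basement membrane and smooth muscle lists. They lie furthest right of it for the choroid plexus, fibroblast, astrocyte endfoot and endothelial activation lists.

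A list of angiogenic ligands and of ligands, receptors and targets of Notch, BMP and apelin signalling was split in direction. Ligands and Notch, BMP and apelin genes had a median of -0.01, with 10 of 20 measured genes lower and 9 higher, of which 1 was at least 1.5-fold lower and 0 were at least 1.5-fold higher. That gene was Apln, the apelin peptide of sprouting endothelium, at 4.69, within background, on the cuprizone array and 5.40 on the control array, a difference of -0.70 with the cuprizone value raised to the bound. Acvrl1, a BMP receptor that works with Eng, was at 4.87 with cuprizone and 5.24 in the control (-0.37), and Vegfc, the lymphatic growth factor, at 5.14 with cuprizone and 5.50 in the control (-0.36). Chosen after their values were seen, because their receptors are members, were 3 ligands. Vegfa, the ligand of Kdr and Flt1, was at 6.66 with cuprizone and 6.75 in the control (-0.09), and Pdgfb, the ligand of Pdgfrb, at 5.57 with cuprizone and 5.45 in the control (0.12). Angpt1, the ligand of Tek, was within background on both arrays.

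Wnt pathway and endothelial transcription factor genes, which set up the barrier, had a median of -0.02 over 20 measured genes, 13 lower and 6 higher, none past 1.5-fold. Fli1, an ETS factor that leukocytes and microglia also make, was at 6.36 on the cuprizone array and 5.97 on the control array (0.40), above its range of -0.40 to 0.34. Tspan12, a cofactor of the Wnt receptor for norrin, was at 6.03 with cuprizone and 6.40 in the control (-0.37), and Ndp, the norrin gene itself, at 5.23 with cuprizone and 4.91 in the control (0.32). Other junction and caveolar genes had a median of 0.02 over 15 measured genes, with F11r at 0.34, Tjp3 at 0.27 and Cav2 at -0.21 as the largest differences. In this wider list 6 genes were lower, 8 higher and 0 past 1.5-fold, and Cldn5 and Cdh5 differed by more than any of its lower genes.

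Other barrier transporters and receptors had a median of 0.01 over 21 measured genes, with 10 lower and 11 higher. Slc7a5, the large amino acid carrier, was at 7.98 on the cuprizone array and 7.05 on the control array (0.93), and Slc3a2, the heavy chain it pairs with, at 7.82 with cuprizone and 7.27 in the control (0.55). Both genes are also made outside vessels. Slc38a5, a glutamine carrier of brain endothelium, was at 4.58 with cuprizone, within background, and 5.07 in the control, a difference of -0.36 with the cuprizone value raised to the bound. The 2 chains of the amino acid carrier were thus higher together, and they lay above the ranges of their levels.

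Genes of endothelial activation and leukocyte adhesion had a median of 0.05 over 14 measured genes, with 3 lower, 10 higher and 0 past 1.5-fold; this higher direction turns under both spike-in scalings. The largest differences were 0.42 for Plat, the tissue plasminogen activator, 0.37 for F3, the tissue factor that astrocytes also make, and 0.33 for Vwf, the von Willebrand factor of endothelial granules. Vwf was at 5.53 on the cuprizone array and 5.20 on the control array, opposite in direction to Cdh5 and Pecam1, though within its range of -0.39 to 0.42.

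Other mural genes lay on both sides of 0. Other pericyte genes had a median of -0.15 over 11 measured genes, with 6 lower and 5 higher, and of -0.07 over the 8 above background on both arrays. Heyl, a target of Notch signals in mural cells, was at 4.92 on the cuprizone array and 5.42 on the control array (-0.50), and Rgs4, which neurons also make, at 6.53 with cuprizone and 6.99 in the control (-0.45). Both lay below the ranges of their levels. Notch3, the mural Notch receptor, was at 5.05 with cuprizone and 5.33 in the control (-0.28). Kcnj8, named after its value was seen because it forms a channel with Abcc9, was at 5.31 with cuprizone and 5.23 in the control (0.08). Other smooth muscle genes had a median of -0.08 over 12 measured genes and of 0 over the 7 above background on both arrays. Their largest differences were those of Casq2, a calcium store protein within background on both arrays, Mrvi1 at 0.35, a partner of cyclic GMP signals, and Smtn at -0.20, the filament protein smoothelin.

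The surroundings of the vessels differed by list. Basement membrane genes had a median of -0.09 over 16 measured genes, with 10 lower and 5 higher. Lamc3, a laminin chain, was at 4.64, within background, on the cuprizone array and 5.50 on the control array, a difference of -0.79 with the cuprizone value raised to the bound. The laminin chain Lamc1 differed by -0.28 and the matrix protein Sparc, which several cell types make, by -0.28. Astrocyte endfoot genes had a median of 0.06 over 11 measured genes, which also turns under both spike-in scalings, with 0.28 for the glutamate carrier Slc1a3, -0.20 for the glutamate carrier Slc1a2 and 0.18 for the connexin Gja1.

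Tissue that can come along with vessels in a dissection read slightly higher as deposited, with medians that turn below 0 under both spike-in scalings. Perivascular fibroblast and meningeal genes had a median of 0.15, with 11 of 14 measured genes higher and a summed log2 level of 80.1 on the cuprizone array and 78.5 on the control array. Fmod, a small proteoglycan, was at 6.76 with cuprizone and 6.36 in the control (0.40), Igf2, a growth factor of meninges, at 6.66 with cuprizone and 6.33 in the control (0.33), and Foxc1, a transcription factor of meninges and pericytes, at 4.77 with cuprizone and 5.09 in the control (-0.32). Choroid plexus genes had a median of 0.15 over 8 measured genes, with summed levels of 46.4 with cuprizone and 45.1 in the control, and Ttr, its transthyretin, was at 10.28 with cuprizone and 9.86 in the control (0.43). The factor F5 differed by 0.52 and Clic6 by 0.22. Erythroid genes, a sign of blood left in vessels, had a median of 0.09 over 6 measured genes and 0.04 over the 4 above background on both arrays, with summed levels of 37.7 with cuprizone and 36.9 in the control. Of these, Hbb-bt was at 4.98 with cuprizone and at 4.02 in the control, within background, a difference of 0.29 with the control value raised to the bound. Hba-a2 was at 10.03 with cuprizone and 9.82 in the control (0.20) and Bpgm at 4.80 with cuprizone and 5.22 in the control (-0.42). The part that these neighbouring tissues have in the differences of the members was not tested.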

How the data were processed

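RNA of 1 cuprizone and 1 control mouse was read on an Affymetrix Mouse Gene 2.0 ST array. The authors deposited log2 values for 41345 probe sets. The submitters' processing notes name RMA and Affymetrix Power Tools, without versions. RMA normalizes arrays toward a common distribution, which can remove a shift of total RNA; the deposited array medians still differed slightly, at 4.36 for cuprizone and 4.33 for control. A further deposited table differed by at most 5e-05. No source used here names the genome build. Array start positions lay within 100 bases of the GRCm38.p6 RefSeq start for 20 of 22 members with 1 RefSeq window. The exceptions were Tie1, at 212 bases, and Abcb1a, at 92986 bases. A gene was read from its probe set with the highest mean of both arrays. All 34 gene IDs carry the same symbol in the RefSeq table.

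Differences were computed from the deposited log2 values. No test was made, and the number of arrays limits the precision. Values within background were raised to its bound where the text says so. The counting was tested on simulated data. All 34 members are named, and the 3 measured genes with the largest absolute difference in each further list; the 4 lists that check the labels are given as counts. The members, lists and motifs were chosen with earlier results of these data known, and the comparison with genes of like level was added after the data were seen. Alternatives were median centring, lowess (span 0.2), quantile normalization, the other table, averaged probe sets, the level filter left out or set at the 75th percentile (5.55), values raised to background, scaling on hybridization or poly-A spike-ins, and leaving out cross-hybridising probe sets. Tools were Python 3.11.15, pandas 2.3.3, NumPy 2.4.6, statsmodels 0.14.6 and Matplotlib 3.10.9.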

Additional observations from a re-analysis of the deposited data

How the results depend on the processing

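No paired analysis was possible because each group has 1 array, and no replicate could be left out. Of 306 differences of single members under the 9 alternatives other than spike-in scaling, 301 moved by no more than 0.21, a tolerance taken from the central 68% of measured genes, and 5 moved by more: Lmod1 (-0.02), Higd1b, Tagln and Ly6c1 (0.02 each) with background values raised, and Ly6c1 (-0.14) with the lowess trend removed. Many of the 301 could not move. Each member has 1 probe set coded as unique, so averaging probe sets or leaving out cross-hybridising ones changes no member. The level filters change no value, the other table is nearly identical, and median centring moves all members alike. Only lowess, quantile normalization and raised background could move a single member on its own. The 2 members at least 1.5-fold lower became 1 with the lowess trend removed and with quantile normalization, where Cldn5 fell short at -0.56 and -0.58. Of all measured genes, 1.56% and 1.42% were so under these settings. The count was also 1 with the 75th percentile filter and with background raised, where Lmod1 was lost and 0.93% and 0.604% of measured genes were so. It became 7 with hybridization and 15 with poly-A spike-in scaling, where 7.83% and 23.6% of measured genes were so. The 1 member at least 2-fold lower became 0 with the 75th percentile filter and with background raised, which take Lmod1 out by construction, and 2 with poly-A scaling. With the 75th percentile filter the junction median was -0.43 over 4 genes and the angiogenic receptor median -0.32 over 5. With hybridization scaling medians were -0.38 for all members, -0.39 endothelial, -0.31 mural, -0.53 junction, -0.28 transporter, -0.47 angiogenic receptor and -0.35 smooth muscle. With poly-A scaling they were -0.54, -0.55, -0.48, -0.69, -0.44, -0.63 and -0.51 in the same order. Both scalings subtract a constant. Of 110 medians and counts under the 11 alternatives, the other 85 stayed within 0.1 or within 1.5 times. Among these were all those under the other table, averaged probe sets and cross-hybridising probe sets left out, which could not change. Levels near background limit Lmod1, Esam, Emcn, Higd1b, Tagln and Ly6c1.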
